A study of Homo sapiens with 4 samples.

Results

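The aminoacyl-tRNA synthetases are the enzymes that join each amino acid to its transfer RNA, and 36 of their genes were read here by symbol from a table of 57979 genes. Of these, 20 encode cytosolic enzymes or subunits (AARS, CARS, DARS, EPRS, FARSA, FARSB, GARS, HARS, IARS, KARS, LARS, MARS, NARS, QARS, RARS, SARS, TARS, VARS, WARS and YARS) and 16 encode mitochondrial enzymes (AARS2, CARS2, EARS2, FARS2, HARS2, IARS2, LARS2, MARS2, NARS2, PARS2, RARS2, SARS2, TARS2, VARS2, WARS2 and YARS2). The rule for members uses gene names and no measured value. Each was found on 1 row, and all 36 were among the 13246 genes with a mean above 1 FPKM, which were the genes tested. FPKM counts sequenced fragments relative to the length of the transcript and to the size of the library.

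The study sequenced polyadenylated RNA from cells labelled HepG2, a human line from a liver tumour, in 2 wild-type libraries and 2 libraries with a CRISPR-Cas9 knockout of TXNDC9, a thioredoxin domain protein. The guide was aimed at the first exon of TXNDC9 and delivered in a lentiviral vector that also carries Cas9. In the study's blot of this line, infected cells had been sorted and the controls carried the vector alone. The labels call the sequenced controls wild type, name no clone and do not say whether the 2 libraries of a group came from separate cultures, so the p-values below measure the spread between libraries, which may be technical.

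The labelled cell type was not borne out by its markers. Of 9 hepatocyte genes (ALB, AFP, APOA1, APOB, TTR, SERPINA1, HNF4A, FGB and TF), 0 were above 1 FPKM in every library. Their summed level was 0.446 and 0.733 FPKM in the wild type and 0.0479 and 0.174 FPKM in the knockout, and APOA1 was listed at 0 throughout. The summed level of 6 fibroblast markers was 54.1, 49.6, 38.4 and 34.5 FPKM in the same order, most of it from COL1A1 and COL3A1, with COL1A2 listed at 0. PDGFRB, on the same list, went against the sum, at 1.08 and 0.735 FPKM in the wild type and 3.004 and 2.62 FPKM in the knockout (log2 difference 1.55, adjusted p = 0.00392, limma). That of 5 leukocyte markers was between 0.491 and 1.21 FPKM. The part of these markers in the results below was not tested. TXNDC9 itself was listed at 35.1 and 37.3 FPKM in the wild type, against 21.9 and 27.6 FPKM in the libraries labelled knockout. Its log2 difference of -0.55 (SE 0.14, adjusted p = 0.0145, limma) missed the 0.01 threshold and turned to 0.12 on a common total per library. These are RNA levels, whereas the study's blot, in which it reports TXNDC9 as significantly reduced, measured protein.

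Every tissue expresses these enzymes, since each round of protein synthesis consumes charged transfer RNA. The cytosolic set serves ribosomes in the cytoplasm, and 8 of its enzymes sit together in the multisynthetase complex. The mitochondrial set is encoded in the nucleus and imported, and KARS and GARS supply both compartments from a single gene. Many cytosolic synthetase genes are known targets of ATF4, the transcription factor that is translated when amino acids run short and that binds the C/EBP-ATF response element. MYC, the factor the study placed beside TXNDC9, binds E-boxes and is known to favour genes of protein synthesis.

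The promoters are shown because both elements can be read in them. The C/EBP-ATF element was searched as TGATGNAA on both strands, where N is any base, in 250 bases before and 50 after each start site of RefSeq genes on GRCh38.p14. It was found in 7 of the 16 cytosolic genes with a promoter in that table (43.8%), in 1 of 14 mitochondrial genes (7.14%) and in 4.46% of all 27305 genes with a promoter. DARS, LARS, VARS, YARS, AARS2 and VARS2 were not matched. The 8 windows are printed on the strand of the gene, with the element in capitals.
TARS: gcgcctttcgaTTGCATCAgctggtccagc
GARS: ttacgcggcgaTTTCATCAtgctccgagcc
MARS: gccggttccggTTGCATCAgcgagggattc
CARS: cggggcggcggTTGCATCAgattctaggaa
AARS: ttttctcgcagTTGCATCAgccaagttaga
NARS: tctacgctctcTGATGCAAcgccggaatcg
IARS: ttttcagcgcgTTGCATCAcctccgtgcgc
YARS2: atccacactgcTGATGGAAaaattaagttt

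These windows lie at chr5:33440956-33440985 on the plus strand for TARS, chr7:30594834-30594863 plus for GARS, chr12:57488053-57488082 plus for MARS, chr11:3057407-3057436 minus for CARS, chr16:70289675-70289704 minus for AARS, chr18:57621804-57621833 minus for NARS, chr9:92293692-92293721 minus for IARS and chr12:32756076-32756105 minus for YARS2. For GARS it was the second of 2 start sites that held the element, and for TARS and CARS only the first of 2. In TARS, MARS, CARS, IARS and NARS the first base of the element lay within 15 bases of the start site, whereas in AARS and YARS2 it began at positions -187 and -197 from it. A match describes letters in a window and is not a measured binding site.

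The E-box, searched as CACGTG, which reads the same on both strands, was in 1 of 16 cytosolic genes (IARS) and in 3 of 14 mitochondrial genes (CARS2, EARS2 and MARS2), against 8.77% of all genes with a promoter. For CARS2 only the first of 2 start sites held it. All 4 genes are shown because MYC is known to bind this element, and the capitals mark the E-box.
IARS: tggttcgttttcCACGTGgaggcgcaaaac
CARS2: tgctgggatgcaCACGTGcttcgctaacag
EARS2: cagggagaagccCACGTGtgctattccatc
MARS2: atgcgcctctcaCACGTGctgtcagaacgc

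They lie at chr9:92293866-92293895 on the minus strand, chr13:110706501-110706530 on the minus strand, chr16:23557348-23557377 on the minus strand and chr2:197705346-197705375 on the plus strand, in that order. As given below, the FPKM of CARS2 and EARS2 fell in the knockout and that of IARS rose, and MARS2 had a log2 difference of 0.55 that did not pass the test (1.23 as TPM, adjusted p = 0.00186, limma).

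Cytosolic synthetases were abundant and spread over a wide range. TARS, which charges transfer RNA with threonine, was the highest, and CARS, for cysteine, was the lowest at 20.4 and 24.6 FPKM in the wild type and 12.1 and 14.8 FPKM in the knockout. Together the 20 genes took 0.310% and 0.322% of the FPKM total in the wild type and 0.310% and 0.30% in the knockout. The mitochondrial genes were lower, from PARS2 at about 2 FPKM to IARS2, the mitochondrial isoleucine enzyme, by the mean over all 4 libraries. By the wild-type mean, however, CARS2, YARS2 and SARS2 each stood above IARS2. Together the mitochondrial genes took 0.0598% and 0.0558% against 0.0700% and 0.0710%. A lower share or level in a bulk library cannot tell fewer cells from less RNA per cell.

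**Figure D1:**
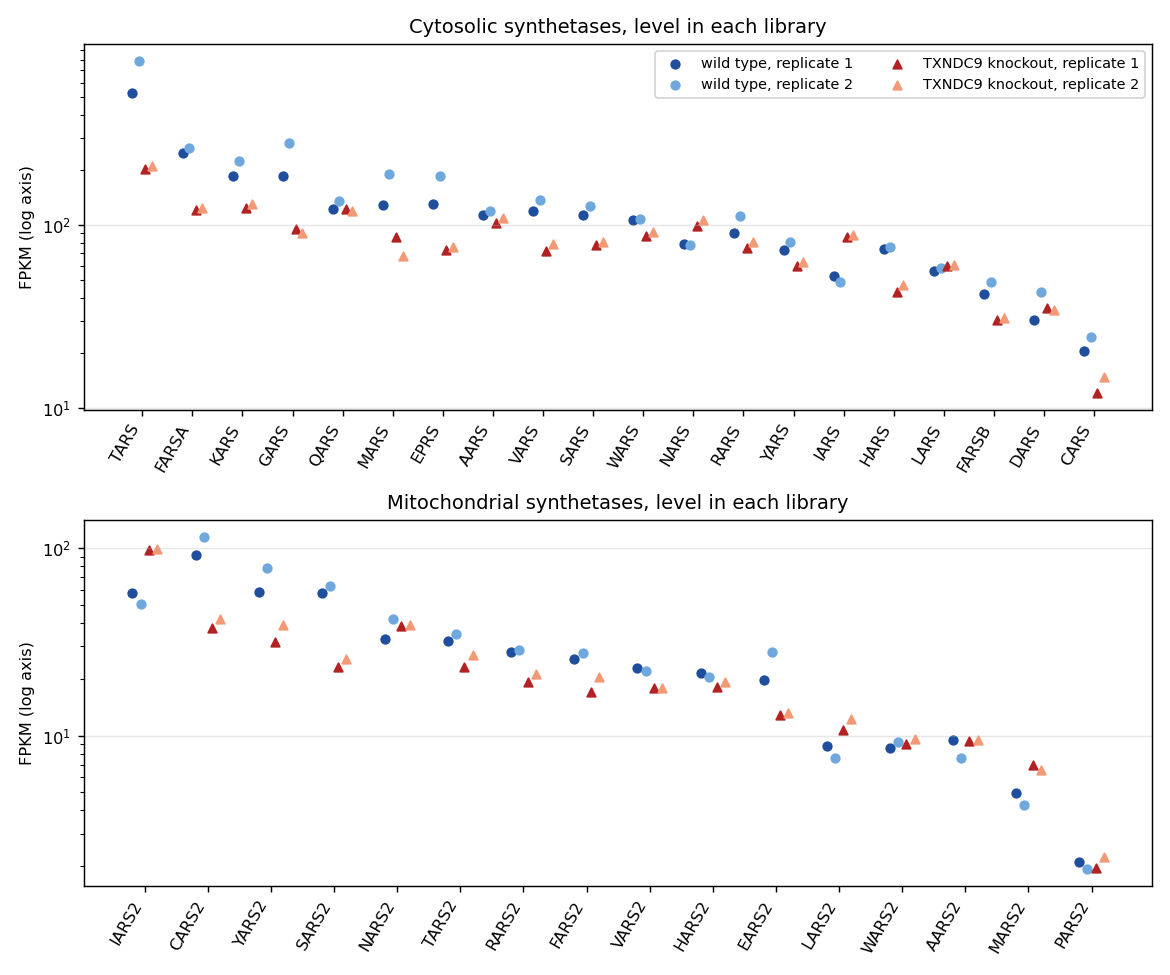
FPKM of each synthetase gene (log axis) in the 2 wild-type libraries (blue circles) and the 2 TXNDC9 knockout libraries (red triangles), with cytosolic genes above and mitochondrial genes below, ordered by mean level. TARS stands highest with 528 and 790.5 FPKM in the wild type and 203 and 211 FPKM in the knockout, and the knockout libraries of IARS and IARS2 lie above those of the wild type.

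The comparison of knockout with wild type was made with limma on log2(FPKM + 0.1), with p-values adjusted by the Benjamini-Hochberg method over all 13246 genes. A gene was called when its adjusted p was under 0.01 and it changed at least 2-fold. On the deposited scale 5 of 20 cytosolic genes were called lower (TARS, GARS, EPRS, FARSA and MARS) and 0 higher, beside 15.3% of all tested genes called lower and 14.2% called higher. Of 16 mitochondrial genes, 2 were called lower (CARS2 and SARS2) and 0 higher. Without the 2-fold minimum, a looser rule that was added after seeing the data, 11 cytosolic genes passed lower and 1 higher, and 5 mitochondrial genes passed lower and 1 higher, where 27.1% of all genes passed lower and 23.7% higher.

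The choice of scale decided how many calls there were. The deposited values added up to 805816 and 971102 in the wild type and to 535973 and 568279 in the knockout. When every library was brought to one common total (TPM, a share of all transcripts), the log2 difference of each member went up by 0.66 to 0.68 and the median of all genes went from -0.09 to 0.59. On the TPM scale 0 synthetases were called lower, beside 3.37% of all genes, and 5 were called higher (IARS, NARS, IARS2, LARS2 and MARS2), beside 33.1%. All 7 genes called on the deposited scale remained below 0 on the TPM scale, where limma gave an adjusted p under 0.01 without a fold minimum to 4 members in the lower direction (TARS, GARS, CARS2 and SARS2, beside 10.4% of all genes) and to 11 in the higher direction (beside 44.7%). Directions below are those of deposited FPKM. The shift was nearly equal for all members, so the span of 2.52 log2 units from TARS to IARS2 is almost free of the scale.

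TARS fell furthest. It was listed at 528 and 790.5 FPKM in the wild type and at 203 and 211 FPKM in the knockout, and the groups did not overlap. The log2 difference was -1.64 (SE 0.21, adjusted p = 0.00139, limma), or -0.96 as TPM, and 4.56% of tested genes lay at or below it. GARS, the glycine enzyme of both compartments, was listed at 185 and 281 FPKM against 95.7 and 90.5 FPKM. Its log2 difference was -1.29 (SE 0.21, adjusted p = 0.00290), or -0.61 as TPM. In both genes the second wild-type library stood well above the first, by 0.58 and 0.60 log2 units, while the knockout libraries lay close together.

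EPRS, a single chain that charges both glutamate and proline in the multisynthetase complex, was listed at 130.3 and 185 FPKM in the wild type and 72.8 and 76.05 FPKM in the knockout. It fell by 1.06 on the log2 scale (SE 0.18, adjusted p = 0.00362, limma), or by 0.38 as TPM. MARS, the methionine enzyme of the same complex, was listed at 129 and 190.0 FPKM against 86.1 and 67.7 FPKM, and fell by 1.04 (SE 0.22, adjusted p = 0.00787), or by 0.36 as TPM. MARS overlaps DDIT3 by 982 bases on chromosome 12, and DDIT3, a stress-induced transcription factor, fell as well. FARSA, the alpha subunit of the phenylalanine enzyme, was the steadiest of the called genes, at 246 and 262 FPKM against 121 and 124 FPKM. Its log2 difference was -1.05 (SE 0.11, adjusted p = 0.000846), or -0.37 as TPM. FARSB, the beta subunit of the same enzyme, was listed at 41.8 and 49.0 FPKM against 30.4 and 30.9 FPKM, with -0.56 (adjusted p = 0.00729), or 0.12 as TPM.

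The only cytosolic gene to pass the test in the higher direction was IARS, the isoleucine enzyme, which is described in full because its direction was seen to differ. It was listed at 52.6 and 48.7 FPKM in the wild type and at 86.3 and 88.1 FPKM in the knockout, a log2 difference of 0.78 (SE 0.10, adjusted p = 0.00148, limma), or 1.46 as TPM. Besides FARSB, the other genes that fell by less than 2-fold were VARS, CARS, HARS, KARS and SARS, with log2 differences between -0.76 and -0.60. As TPM these 5 lay between -0.08 and 0.08 and did not pass.

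For 8 cytosolic genes the difference did not pass. RARS, YARS, WARS, AARS and QARS had log2 differences from -0.36 to -0.10, or 0.32 to 0.58 as TPM, and NARS, the asparagine enzyme, had 0.39 (adjusted p = 0.0195, limma), or 1.07 as TPM. The 2 nearest to 0 were DARS, for aspartate, and LARS, for leucine. DARS was listed at 30.4 and 42.9 FPKM in the wild type and 35.2 and 34.4 FPKM in the knockout, so the groups overlapped (log2 difference -0.05, SE 0.17, adjusted p = 0.805, 0.63 as TPM). LARS was listed at 56.1 and 58.5 FPKM against 59.9 and 60.6 FPKM (log2 difference 0.07, SE 0.10, adjusted p = 0.536, 0.75 as TPM). With the length and GC correction described below, LARS was at -0.56 (adjusted p = 0.00691, limma) and passed in the lower direction without a fold minimum. On the TPM scale AARS, DARS, LARS and QARS passed in the higher direction without a fold minimum, as did IARS and NARS.

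Among the mitochondrial enzymes CARS2 and SARS2, for cysteine and serine, fell most. CARS2 was listed at 92.3 and 115 FPKM in the wild type and at 37.5 and 41.8 FPKM in the knockout, and fell by 1.38 on the log2 scale (SE 0.14, adjusted p = 0.000794, limma), or by 0.70 as TPM. SARS2 was listed at 57.3 and 63.2 FPKM against 23.1 and 25.7 FPKM, and fell by 1.30 (SE 0.11, adjusted p = 0.000588), or by 0.62 as TPM. With the correction for length and GC content described below, both lost the call, at -0.81 and -0.51.

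YARS2, for tyrosine, was listed at 58.6 and 78.7 FPKM in the wild type and 31.6 and 39.1 FPKM in the knockout, and fell by 0.95 (SE 0.18, adjusted p = 0.00549, limma), or by 0.27 as TPM. That is just short of 2-fold, and it was called when libraries were centred on their median (-1.09). With the length and GC correction YARS2 was at -0.73 and did not pass (adjusted p = 0.0192, limma). EARS2, for glutamate, was listed at 19.8 and 28.0 FPKM against 12.9 and 13.2 FPKM, and fell by 0.85 (SE 0.17, adjusted p = 0.00712), or by 0.17 as TPM. RARS2, for arginine, also fell by less than 2-fold, with -0.47 (adjusted p = 0.00854), or 0.20 as TPM. IARS2 went the other way, at 57.5 and 50.1 FPKM in the wild type and 97.8 and 98.9 FPKM in the knockout, a log2 difference of 0.87 (SE 0.11, adjusted p = 0.00147), or 1.55 as TPM. IARS and IARS2, the cytosolic and mitochondrial enzymes for isoleucine, were thus the only 2 of 36 genes to pass in the higher direction on the deposited scale.

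The other 10 mitochondrial genes did not pass. FARS2, TARS2, VARS2 and HARS2 had log2 differences between -0.51 and -0.16, or 0.17 to 0.51 as TPM, whereas AARS2, NARS2, LARS2 and MARS2 had values between 0.06 and 0.55, or 0.74 to 1.23 as TPM. On the TPM scale IARS2, LARS2, MARS2, NARS2 and WARS2 passed in the higher direction without a fold minimum. The 2 nearest to 0 were PARS2, for proline, and WARS2, for tryptophan. PARS2 was listed at 2.13 and 1.94 FPKM in the wild type and 1.95 and 2.26 FPKM in the knockout (log2 difference 0.05, SE 0.20, adjusted p = 0.845, limma, 0.71 as TPM). WARS2 was listed at 8.62 and 9.26 FPKM against 8.99 and 9.63 FPKM (log2 difference 0.06, SE 0.11, adjusted p = 0.663, 0.73 as TPM). In both the groups overlapped.

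**Figure D2:**
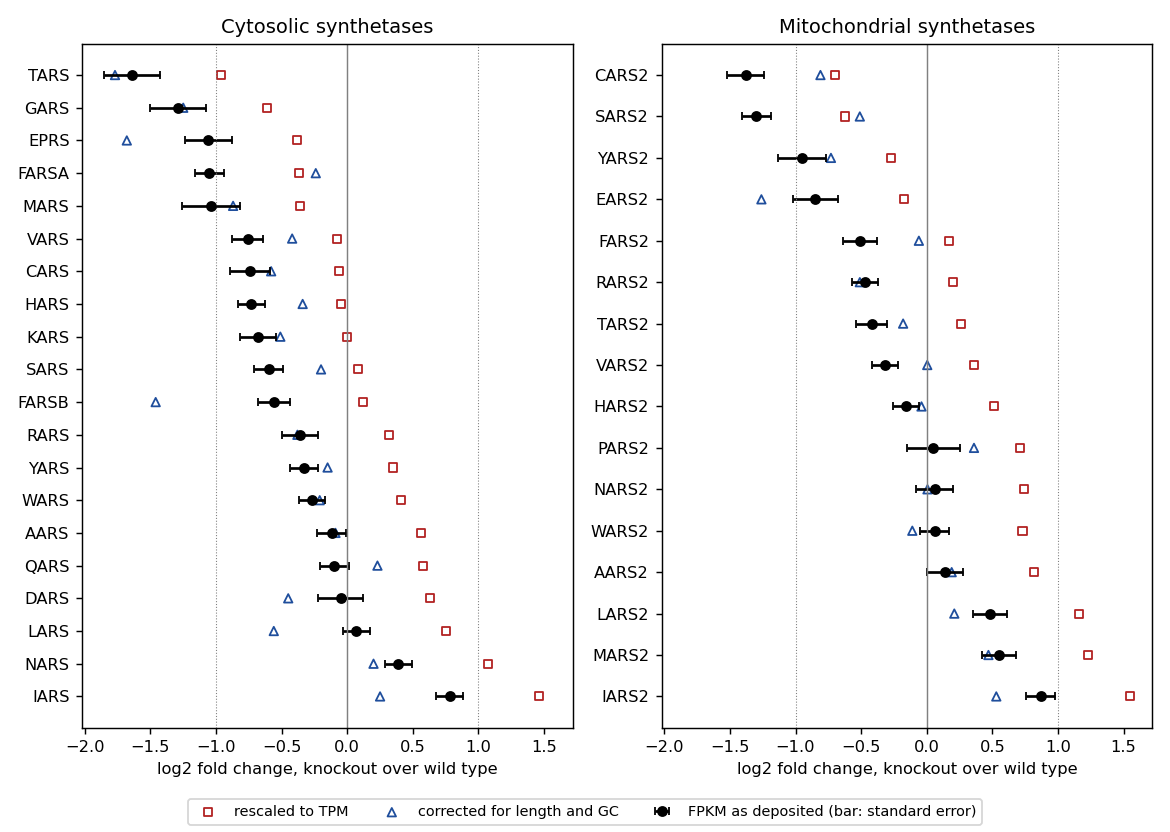
Log2 fold change of knockout over wild type for each synthetase on the deposited FPKM scale (black points, bars are the standard error from limma), after rescaling to TPM (red squares) and after a correction for transcript length and GC content (blue triangles). Dotted lines mark 2-fold, TARS lies at -1.64 on the deposited scale and -0.96 as TPM, and FARSA moves from -1.05 to -0.24 with the correction.

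Taken as groups, the cytosolic genes had a median log2 difference of -0.58 and the mitochondrial genes of -0.24, beside -0.09 for all tested genes. On the TPM scale these medians were 0.10 and 0.44 beside 0.59. With the length and GC correction described below they were -0.40 and -0.05 beside -0.06, so the mitochondrial median no longer lay below that of all genes. For 16 of 20 cytosolic genes the groups did not overlap with the knockout lower, and for 3 with the knockout higher. The numbers were 9 and 3 for the 16 mitochondrial genes, and 45.9% and 40.1% for all tested genes. The log2 difference was below 0 in 17 cytosolic and 9 mitochondrial members, beside 53.4% of all genes, and below the median of all genes in 16 and 9. The difference between the 2 groups was not tested.

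The members were also sorted by structure and by complex. The counts that follow are without a fold minimum, where 27.1% of all genes passed lower and 23.7% higher, or 10.4% and 44.7% as TPM. Synthetases fall into 2 unrelated structural classes. EPRS holds parts of both and was counted with class I by its glutamate part. Of the 19 class I genes 8 passed lower and 2 higher, and the median was -0.33. On the TPM scale 1 passed lower and 7 higher, and the median was 0.35. Of the 17 class II genes 8 passed lower and 0 higher, and the median was -0.51. As TPM 3 of them passed lower and 4 higher, and the median was 0.17. The 8 enzymes of the multisynthetase complex (DARS, EPRS, IARS, KARS, LARS, MARS, QARS and RARS) had a median of -0.23, with 3 lower and 1 higher, and as TPM a median of 0.45, with 0 lower and 4 higher. The 12 cytosolic genes outside it had a median of -0.67, with 8 lower and 0 higher, and as TPM a median of 0.01, with 2 lower and 2 higher. With the correction for length and GC content described below, both orders turned round. The medians were then -0.38 for class I and -0.20 for class II, and -0.48 inside the complex and -0.29 outside it.

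The 13 cytosolic genes listed as induced by ATF4 (AARS, CARS, EPRS, GARS, IARS, LARS, MARS, NARS, SARS, TARS, VARS, WARS and YARS) had a median of -0.60, and the 7 others had -0.56, or 0.08 and 0.12 as TPM. Of the first, 7 passed lower and 1 higher, and of the second 4 passed lower and 0 higher. As TPM these counts were 2 and 4 for the first and 0 and 2 for the second. All 7 cytosolic genes with the C/EBP-ATF element printed above were on the ATF4 list, where 10 genes had a promoter, and 0 of 6 others held it. The log2 differences of these 7 ran from -1.64 in TARS to 0.78 in IARS, with a median of -0.74, while those of the 9 cytosolic genes with a promoter and no match ran from -1.06 to -0.10, with a median of -0.60. The element thus stood in the cytosolic genes with the lowest and the highest value.

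Comparing the cytosolic with the mitochondrial enzyme for the same amino acid within each library removes the scale altogether. It keeps any trend with length and GC content, and no ratio was computed with the correction described below. With that correction the log2 difference was -1.77 for TARS and -0.18 for TARS2. It was -0.58 for CARS and -0.81 for CARS2, and -0.20 for SARS and -0.51 for SARS2. Such ratios could be formed in 17 pairs for 16 amino acids, EPRS and FARS2 serving in 2 pairs each. In 11 pairs the ratio was lower in both knockout libraries than in both wild-type libraries. In 4 it was higher, and in 2 the groups overlapped. The 11 include isoleucine, with a change of only -0.09 log2 units. Taken singly, 45.9% of all tested genes were lower without overlap and 40.1% higher, and no such share was computed for ratios. The median change over the 17 pairs was -0.27 log2 units. With 2 libraries against 2, no exact permutation test can give a p below 0.33, so these are descriptions.

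For methionine, MARS stood 26.3-fold and 44.5-fold above MARS2 in the wild type and 12.4-fold and 10.3-fold above it in the knockout, a change of -1.60 with a within-group SD of 0.40. For threonine, the ratio of TARS to TARS2 was 16.5 and 22.6 in the wild type and 8.73 and 7.81 in the knockout, a change of -1.23 (SD 0.24). Proline followed, with EPRS over PARS2 at 61.3 and 95.4 against 37.2 and 33.7. These are the 3 pairs with the largest change.

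In the opposite direction, SARS stood 1.99-fold and 1.999-fold above SARS2 in the wild type and 3.36-fold and 3.12-fold above it in the knockout, a change of 0.70 (SD 0.05). The ratio of CARS to CARS2 was 0.221 and 0.213 against 0.322 and 0.355, a change of 0.64 (SD 0.08), so the mitochondrial cysteine enzyme was listed above the cytosolic one in every library. Tyrosine and asparagine were the other two. Isoleucine hardly moved, with IARS over IARS2 at 0.914 and 0.971 in the wild type and 0.882 and 0.891 in the knockout, since both genes were higher in the knockout to a like degree.

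**Figure D3:**
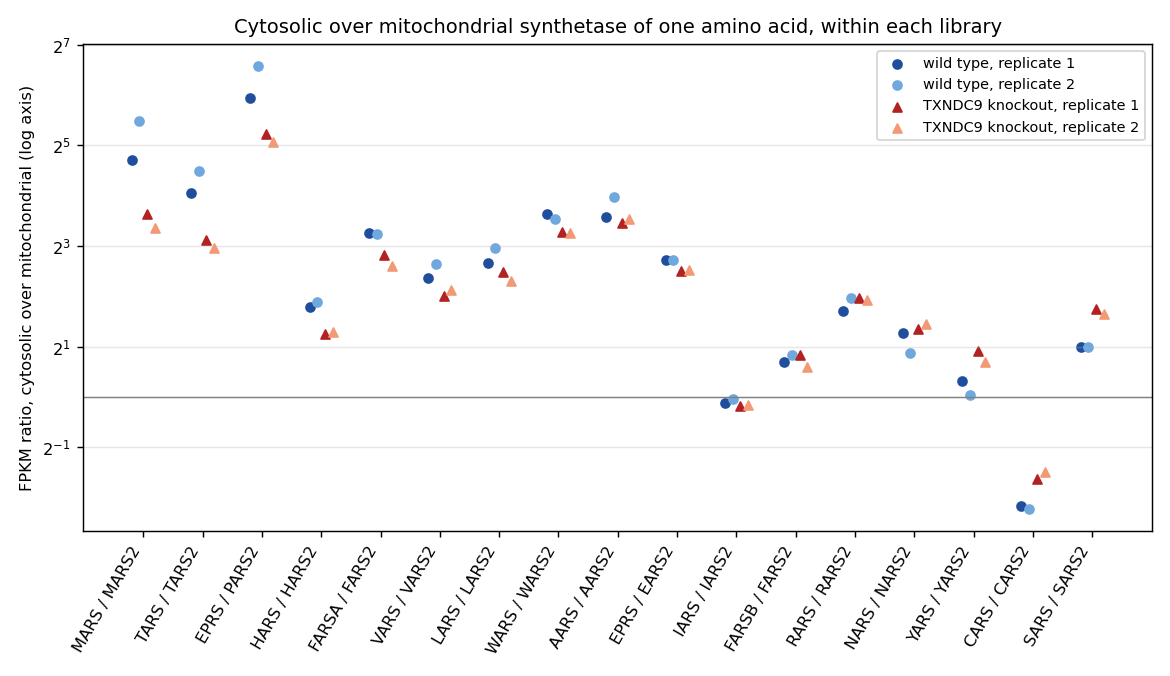
Ratio of the FPKM of the cytosolic to the mitochondrial synthetase of the same amino acid in each library (log axis), with wild-type libraries as blue circles and knockout libraries as red triangles, ordered by the change. MARS over MARS2 goes from 26.3 and 44.5 to 12.4 and 10.3 at the left, and SARS over SARS2 from 1.99 and 1.999 to 3.36 and 3.12 at the right.

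Neighbouring members could differ in direction. EPRS and IARS2 are neighbours on chromosome 1 at 47601 bases, and EPRS fell while IARS2 rose. EPRS occupies chr1:219968600-220046530 on the minus strand with 32 exons in its canonical transcript, and IARS2 chr1:220094132-220148041 on the plus strand with 23, on GRCh38 with GENCODE 44 models. HARS and HARS2 lie head to head on chromosome 5 and share 108 bases, with log2 differences of -0.73 (-0.05 as TPM) and -0.16 (0.51 as TPM). TARS occupies chr5:33440696-33468091 and overlaps no other gene. Of the 36 members, 12 overlap another protein-coding gene and 11 have a pseudogene named after them, and whether reads were counted by strand is not given in the sources used here, so values of these genes are less certain.

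Transcript length and base composition moved with the differences. Across 13112 genes with a length, the Spearman correlation of log2 difference with transcript length was 0.49, and with GC content -0.46. Among the 36 members the same values were 0.40 and -0.26, among the 20 cytosolic members 0.26 and -0.29, and among the 16 mitochondrial members 0.61 and -0.36. All these points share the same 4 libraries, so the values are descriptions. After a loess correction of each library for length and GC, 4 cytosolic genes were called lower (TARS, GARS, EPRS and FARSB) and 1 mitochondrial gene (EARS2), beside 7.5% of all genes called lower and 6.47% higher. TARS was at -1.77 with the correction and EPRS at -1.68, whereas FARSA was at -0.24, SARS2 at -0.51, CARS2 at -0.81 and MARS at -0.87, and these 4 were no longer called. IARS was at 0.25 with the correction and no longer passed in the higher direction (adjusted p = 0.0526, limma), while IARS2 was at 0.53 (adjusted p = 0.00772).

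**Figure D4:**
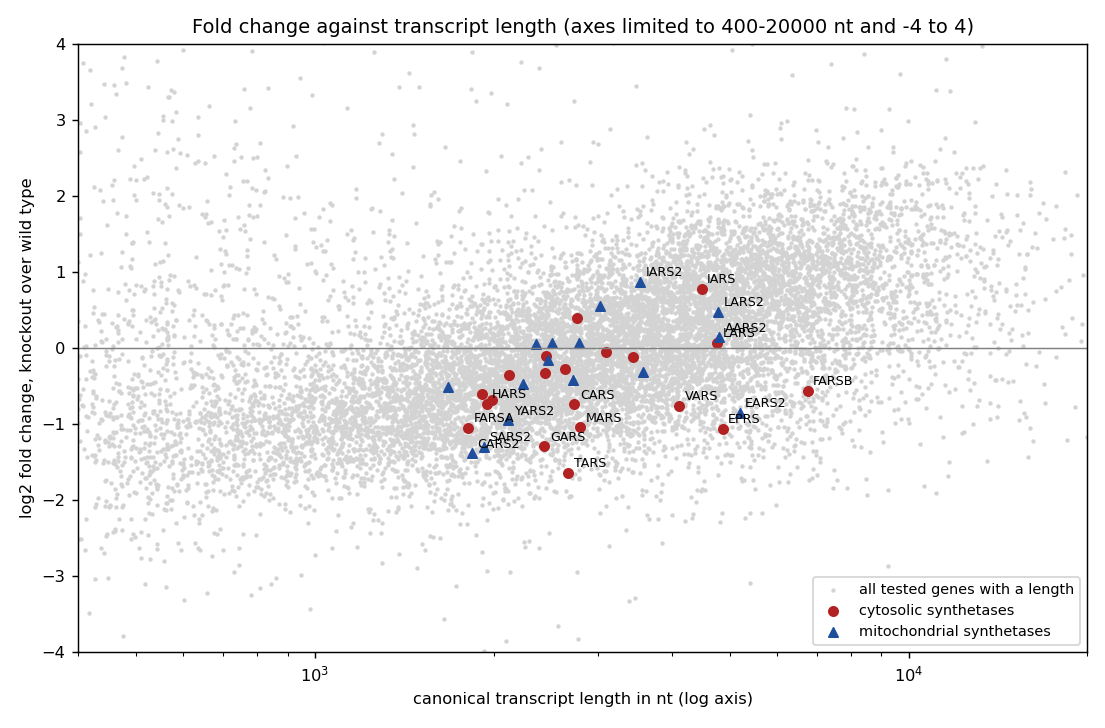
Log2 fold change of knockout over wild type against the length of the canonical transcript (log axis) for all tested genes (grey), cytosolic synthetases (red circles) and mitochondrial synthetases (blue triangles). The grey points slope upward with length (Spearman 0.49), TARS lies under most genes of its length at -1.64, and IARS and IARS2 lie within the cloud of genes of their length at 0.78 and 0.87.

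Genes that act around the synthetases were counted from lists set by function. The amino acid response runs from the kinase EIF2AK4 through ATF4 to its targets. Of its 7 genes, 6 passed lower and 0 higher without a fold minimum, beside 27.1% and 23.7% of all genes. In all 7 the groups did not overlap, with the knockout lower. Lack of overlap was common, since 45.9% of all tested genes showed it with the knockout lower and 40.1% with the knockout higher. The median of the 7 genes was -0.93, or -0.25 as TPM, where 2 passed lower, beside 10.4% of all genes. ASNS, asparagine synthetase, was listed at 70.5 and 102 FPKM in the wild type and 20.2 and 22.9 FPKM in the knockout (log2 difference -1.97, SE 0.19, adjusted p = 0.000687, limma, or -1.29 as TPM). CHAC1, which degrades glutathione, was listed at 5.68 and 7.25 FPKM against 1.74 and 2.30 FPKM (-1.63, SE 0.21, adjusted p = 0.00130, or -0.98 as TPM). ASNS, CHAC1 and DDIT3 were the 3 called, beside 15.3% of all genes called lower. ATF4 was at -0.93 (-0.25 as TPM), and EIF2AK4 did not pass (adjusted p = 0.0120, limma). With the length and GC correction ASNS and EIF2AK4 were called, at -2.02 and -1.44, whereas CHAC1 at -0.73, DDIT3 at -0.68 and ATF4 at -0.35 did not pass and TRIB3 was at 0.11.

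Of 7 scaffold proteins, relatives and editing enzymes, 3 passed lower (AIMP2, AARSD1 and DTD1) and 1 higher (DTD2), and as TPM 0 passed lower and 2 higher. The shares over all genes were 27.1% lower and 23.7% higher, or 10.4% and 44.7% as TPM. AIMP2, a scaffold of the multisynthetase complex, was at -1.06 (adjusted p = 0.000870, limma, -0.38 as TPM) and AARSD1, an editing relative of AARS, at -1.08 (adjusted p = 0.00185, -0.40 as TPM). In selenocysteine synthesis, which is built on serine already joined to its transfer RNA, the kinase PSTK was at -1.15 (adjusted p = 0.00470, -0.49 as TPM) and the synthase SEPSECS at 1.34 (adjusted p = 0.00362, 2.01 as TPM). With the length and GC correction AIMP2 was at -0.53, AARSD1 at -0.46, PSTK at -0.75 and SEPSECS at 0.49, and none of these 4 passed. DTD1 was at -1.34 with the correction and was called lower (adjusted p = 0.0019, limma).

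Of 4 genes for indirect charging and formylation in mitochondria, 0 passed in either direction on the deposited scale. As TPM 3 passed higher, beside 44.7% of all genes. GATB and GATC, subunits of the amidotransferase that makes glutaminyl-tRNA there, were at -0.38 and 0.35 (adjusted p = 0.0189 and 0.0777, limma), or 0.30 and 1.03 as TPM, where GATC was called. Of 7 genes for transfer RNA maturation, export and delivery, 3 passed lower (TUFM, ELAC2 and TSFM) and 2 higher (TRNT1 and XPOT). As TPM 1 passed lower and 3 higher. The shares over all genes were again 27.1% and 23.7%, or 10.4% and 44.7% as TPM. TUFM, the mitochondrial elongation factor that carries charged transfer RNA to the ribosome, was at -1.17 (adjusted p = 0.00102, -0.49 as TPM), and TRNT1, which adds the CCA end, at 0.70 (adjusted p = 0.00184, 1.38 as TPM). With the length and GC correction TUFM was at -0.59, under 2-fold, and TRNT1 at 0.52 (adjusted p = 0.0106, limma). XPOT changed sign, from 0.59 as deposited to -0.26 with the correction, and did not pass (adjusted p = 0.0613).

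The fits were repeated without each library. Each such fit leaves a group with 1 sample, which cannot show its own spread, so only differences are given here. Without the first and the second knockout library in turn, the differences stayed close to those with all libraries. TARS was at -1.62 and -1.67 and CARS2 at -1.30 and -1.46. The wild-type libraries mattered more. Without the second, TARS was at -1.35, and GARS, EPRS and MARS were at -0.99, -0.81 and -0.76, under 2-fold. Without the first, TARS was at -1.94, and EARS2 and YARS2 were at -1.09 and -1.16, past 2-fold.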

How the data were processed

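Polyadenylated RNA of 2 wild-type and 2 TXNDC9 knockout libraries was sequenced by the authors, who mapped reads to hg38 with TopHat2 and an Ensembl annotation and deposited gene FPKM values from Cuffdiff of the Cufflinks suite. No source used here gives the tools' versions, whether strand was used in counting, or how libraries were normalized to each other. The deposited FPKM hold no counts, so the depth behind a value is unknown and no counting interval is given. The table's columns of the authors' group means, fold changes and p and q values were not used.

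The table has 231916 lines, of which 57979 hold values. Each gene identifier is listed 4 times in a row and out of register with the values, so identifiers were put back in order and each member's restored identifier was checked against its GENCODE 44 symbol. Over the whole table, 34949 of 56935 restored identifiers with a reference name (61.4%) matched the listed symbol, against 1 as deposited. Lengths and GC content of all genes rest on the restored identifiers. Genes with a mean above 1 FPKM were fitted with limma 3.58.1 in R 4.3.3 on log2(FPKM + 0.1), by genotype and with the prior variance following the mean level. The script was tested on simulated data. Fold changes on this scale understate those of low genes. All 36 members are named. Full values are given for members called, for the 5 of each compartment with the largest absolute log2 difference, the 2 nearest to 0, the highest of each compartment, and TXNDC9, and of each other list the 2 genes with the largest absolute difference are named. The members and lists were chosen with earlier results of these data known. An item of these lists is not reported here.

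Same-numbered libraries did not deviate together across genes (correlation -0.0904), so the replicate numbers were not taken as pairs. Replicates correlated at 0.976 (wild type) and 0.98 (knockout) on the log2 scale. The alternatives were other pseudocounts, filters, thresholds and scalings, no trend, a correction for length and GC with loess (span 0.3), a replicate block and leaving out each library. Lengths, coordinates and exons are from GENCODE 44, and promoters from RefSeq on GRCh38.p14. Figures were drawn with matplotlib 3.10.9.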

Additional observations from a re-analysis of the deposited data

How the results depend on the processing

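Depth is unknown, each group holds 2 libraries, and the scale of the libraries decides the direction of many small differences. Pseudocounts of 1 and 0.01 and an adjusted p under 0.05 changed the call of 0 members. Rescaled to TPM, 447 genes were called lower and 4380 higher (90.7% of calls), with 0 cytosolic genes lower and 2 higher, 0 mitochondrial genes lower and 3 higher, and 1 gene of the 5 surrounding lists lower and 5 higher. The medians were then 0.10 (cytosolic) and 0.44 (mitochondrial). On that scale TXNDC9 was at 0.12, AARS at 0.56, DARS at 0.63, FARSB at 0.12, QARS at 0.58, RARS at 0.32, SARS at 0.08, WARS at 0.41, YARS at 0.35, FARS2 at 0.17, HARS2 at 0.51, RARS2 at 0.20, TARS2 at 0.26 and VARS2 at 0.36, all below 0 as deposited. By construction the rescaling adds a nearly constant amount to every gene. TPM with no fold minimum, chosen after seeing the data, gave 1371 genes lower and 5915 higher, 2 cytosolic lower and 6 higher, 2 mitochondrial lower and 5 higher, and 3 surrounding genes lower and 9 higher. Deposited FPKM with no fold minimum, also chosen after seeing the data, gave 3590 and 3142 genes, 11 and 1 cytosolic, 5 and 1 mitochondrial, and 13 and 4 surrounding genes, lower and higher in turn.

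Centred on the median, the cytosolic median was -0.72 and the mitochondrial -0.39, 35.8% of the calls over all genes were higher against 48.3% as deposited, 3 mitochondrial genes were lower (YARS2 added), and LARS was at -0.07, AARS2 at -0.0014, NARS2 at -0.08, PARS2 at -0.10 and WARS2 at -0.09. With the length and GC correction 983 genes were called lower and 849 higher, 1 mitochondrial gene and 3 surrounding genes were lower and 0 surrounding genes higher. The medians were -0.40 and -0.05, beside -0.06 for all genes, and LARS was at -0.56, QARS at 0.23, VARS2 at 0.0039 and WARS2 at -0.11. The replicate block with the same correction gave 990 and 792 genes and otherwise the same values, and the replicate block alone left the call of all 36 members as it was (TARS at -1.64). A mean above 5 FPKM left 1220 genes higher and 0 surrounding genes higher. Without a filter 1 cytosolic gene (FARSA) was lower, with 4 surrounding genes lower and 0 higher, and without the trend 3 cytosolic genes were lower (TARS, GARS and FARSA). The cause of these changes was not tested.

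Leaving out each library in turn gave 0 to 2633 genes lower and 0 to 2136 higher, 0 to 5 cytosolic and 0 to 4 mitochondrial genes lower, and 0 to 10 surrounding genes lower and 0 to 1 higher. The 0 came from leaving out a knockout library, where limma gave 7129 and 7307 genes an unadjusted p under 0.05 and a lone sample was assumed to vary like the other group. The cytosolic median ran from -0.68 to -0.49. DARS ran from -0.30 to 0.20, AARS2 from -0.02 to 0.30, NARS2 from -0.12 to 0.25 and PARS2 from -0.05 to 0.15.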
